A study of Mus musculus with 8 samples.

Results

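Genes that flank *Elavl1*, the gene for the RNA-binding protein HuR, on mouse chromosome 8 were examined in brown adipose tissue (BAT). The group holds 10 of the 33641 genes in the deposited files, all less than 1 Mb from *Elavl1*. *Tgfbr3l* and *Ctxn1* were selected on their rise in the libraries labelled *Adipo-HuR-/-*, so their values between the groups are given as a description, without a test. *Snapc2*, *Timm44*, *Ccl25*, *Stxbp2*, *Camsap3*, *Xab2*, *Arhgef18* and *Mcoln1* were taken from the same 1 Mb, with earlier results of these data known. They are not simply the nearest genes, as *Map2k7*, 37485 bases from *Elavl1*, is not among them. Estimated counts per transcript came from poly(A) libraries of interscapular BAT of 8 C57BL/6 mice aged 28 weeks. By label, A7, A8 and A12 are wild type, named control below, while the genotype of A24, A25, A26, A29 and A31 is *Adipo-HuR-/-*; values of single libraries always follow this order. A figure legend of the study numbers these groups the other way round, as 5 control and 3 *Adipo-HuR-/-*; the labels were followed. In the *Adipo-HuR-/-* mice, floxed HuR alleles are recombined by a Cre driven by the adiponectin promoter, which is active in adipocytes, so that other cells of the depot keep the gene. Per the study's methods, controls were littermates that carried Cre without floxed alleles or floxed alleles without Cre, and the labels do not tell which kind each control library is. Each library is presumed to be a separate animal, as the labels differ, and p-values measure the spread between these libraries.

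Mammalian genes lie close together along chromosomes, and neighbours can share regulatory DNA, run into one another's transcripts or be transcribed independently. *Elavl1* sits in a gene-dense stretch whose neighbours have unrelated jobs, from mitochondrial protein import to chemokine signalling. Brown adipocytes, which are rich in mitochondria, need such an import machinery.

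The control libraries held 60622522, 51751002 and 50673814 counts, and the libraries labelled *Adipo-HuR-/-* 18264754, 17558090, 67498055, 50893173 and 58727739. A24 and A25 had the fewest counts, and both were labelled *Adipo-HuR-/-*. Expression is given as CPM after TMM scaling, which sets libraries to a common scale by the bulk of their genes. Differences are log2 fold changes of *Adipo-HuR-/-* over control from edgeR's quasi-likelihood test over 14851 genes, with Benjamini-Hochberg adjustment. A gene was past the threshold at an adjusted p of at most 0.05 and a fold change of at least 1.5.

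*Elavl1* itself (chromosome 8, 4285382 to 4325413, minus strand, GRCm38) had no lower total under the *Adipo-HuR-/-* label. The total was 49.2 ± 1.28 CPM (SD, n = 3) in the control libraries and 55.0 ± 8.95 CPM (SD, n = 5) in the others, and the groups overlapped (p = 0.357, two-sided exact permutation). Its transcripts did separate by label: *Elavl1-201* held 26.7 ± 7.03% of the gene's counts (SD, n = 3) in the control libraries and 9.55 ± 1.98% (SD, n = 5) in the others, without overlap. All directions below rely on the labels.

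On the 3ʹ side of *Elavl1* lie, with increasing distance, *Timm44* (9469 bases away), *Ctxn1* (26108), *Snapc2* (29162) and *Tgfbr3l* (33959). *Xab2*, *Camsap3*, *Stxbp2*, *Mcoln1* and *Arhgef18* lie farther out on the same side, between 641738 bases (*Stxbp2*) and 828781 bases (*Arhgef18*) from it. *Ccl25* starts at 4325210 on the plus strand, inside the first exon of *Elavl1* on the other strand. The sources do not say if reads were counted by strand, so those of that overlap cannot be told apart, nor can those where *Camsap3* and *Xab2* overlap, between the start of *Xab2* at 3608421 and the end of *Camsap3* at 3609075.

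*Tgfbr3l*, which encodes a co-receptor that binds inhibin B on pituitary gonadotrophs, showed the widest gap between the groups among the 10 genes. It lies at 4248214 to 4251423 on the plus strand (ENSMUSG00000089736.2). The control libraries held 0.146, 0.481 and 0.251 CPM of it. Those labelled *Adipo-HuR-/-* held 2.48, 1.52, 2.76, 3.88 and 3.55 CPM. Each library labelled *Adipo-HuR-/-* was above the highest control library, A8, and A25 was the lowest of them. The means were 0.292 ± 0.172 CPM (SD, n = 3) against 2.84 ± 0.931 CPM (SD, n = 5), 9.70-fold apart, and the fitted log2 fold change was 3.31 (standard error 0.475). These levels rest on 9.26, 18.7 and 12 counts in the control libraries and on between 31.8 (A25) and 234 (A31) counts in the others.

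*Ctxn1*, which encodes cortexin 1, a small single-pass membrane protein known from neurons, lies at 4257660 to 4259274 on the minus strand (ENSMUSG00000048644.8). Its control values were 0.308, 0.658 and 0.460 CPM. The values under the *Adipo-HuR-/-* label were 1.24, 2.09, 1.81, 3.13 and 1.57 CPM. Again every library labelled *Adipo-HuR-/-* was above A8, the highest control library, with A24 closest to it and A29 highest. The means were 0.475 ± 0.176 CPM (SD, n = 3) against 1.97 ± 0.718 CPM (SD, n = 5), 4.14-fold apart, and the fitted log2 fold change was 2.07 (standard error 0.405). A24, with few counts in all, gave 22 *Ctxn1* counts, as many as the control library A12.

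*Snapc2* and *Timm44*, which lie between and beside the selected pair, showed no such gap. *Snapc2* (4253080 to 4256220, plus strand) encodes a subunit of the complex that starts transcription of small nuclear RNA genes, and it sits between *Tgfbr3l* and *Ctxn1*. It stood at 7.79, 8.10 and 6.12 CPM in the control libraries and at 7.73, 8.26, 7.16, 7.69 and 6.98 CPM in the others. The 5 libraries labelled *Adipo-HuR-/-* lay within or just above the control range. The log2 fold change was 0.04 (0.165 as standard error, 95% interval −0.32 to 0.41, adjusted p = 0.922 by the quasi-likelihood test of edgeR). *Timm44* (4259731 to 4275913, minus strand) tethers the motor that pulls proteins through the inner mitochondrial membrane, and it lies between *Ctxn1* and *Elavl1*. Control libraries held 147, 157 and 117 CPM and the others 146, 134, 133, 140 and 127 CPM. All 5 libraries labelled *Adipo-HuR-/-* lay inside the control range, and the log2 fold change was −0.04 (0.146 as standard error, 95% interval −0.37 to 0.28, adjusted p = 0.915 by the quasi-likelihood test of edgeR). A p that misses the threshold does not show equality; these intervals run from 0.799-fold to 1.33-fold for *Snapc2* and from 0.776-fold to 1.22-fold for *Timm44*.

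*Map2k7*, a stress kinase gene upstream of *Tgfbr3l*, ends just before it, at 4247897, and had 40.1 ± 4.22 CPM (SD, n = 3) against 44.6 ± 4.27 CPM (SD, n = 5). GENCODE M21 lists a read-through transcript, *Gm49320*, that joins *Map2k7* to *Tgfbr3l*; no value is given for it here, and reads from it cannot be told apart from reads of the shared exons. *Ccl25* (4325210 to 4360020, plus strand) encodes the chemokine that draws lymphocytes bearing the receptor Ccr9 to thymus and gut. It had 4.81 ± 0.961 CPM (SD, n = 3) against 4.60 ± 0.650 CPM (SD, n = 5), with overlap and −0.06 as the log2 fold change (0.210 as standard error, adjusted p = 0.917 by the quasi-likelihood test of edgeR).

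**Figure D1:**
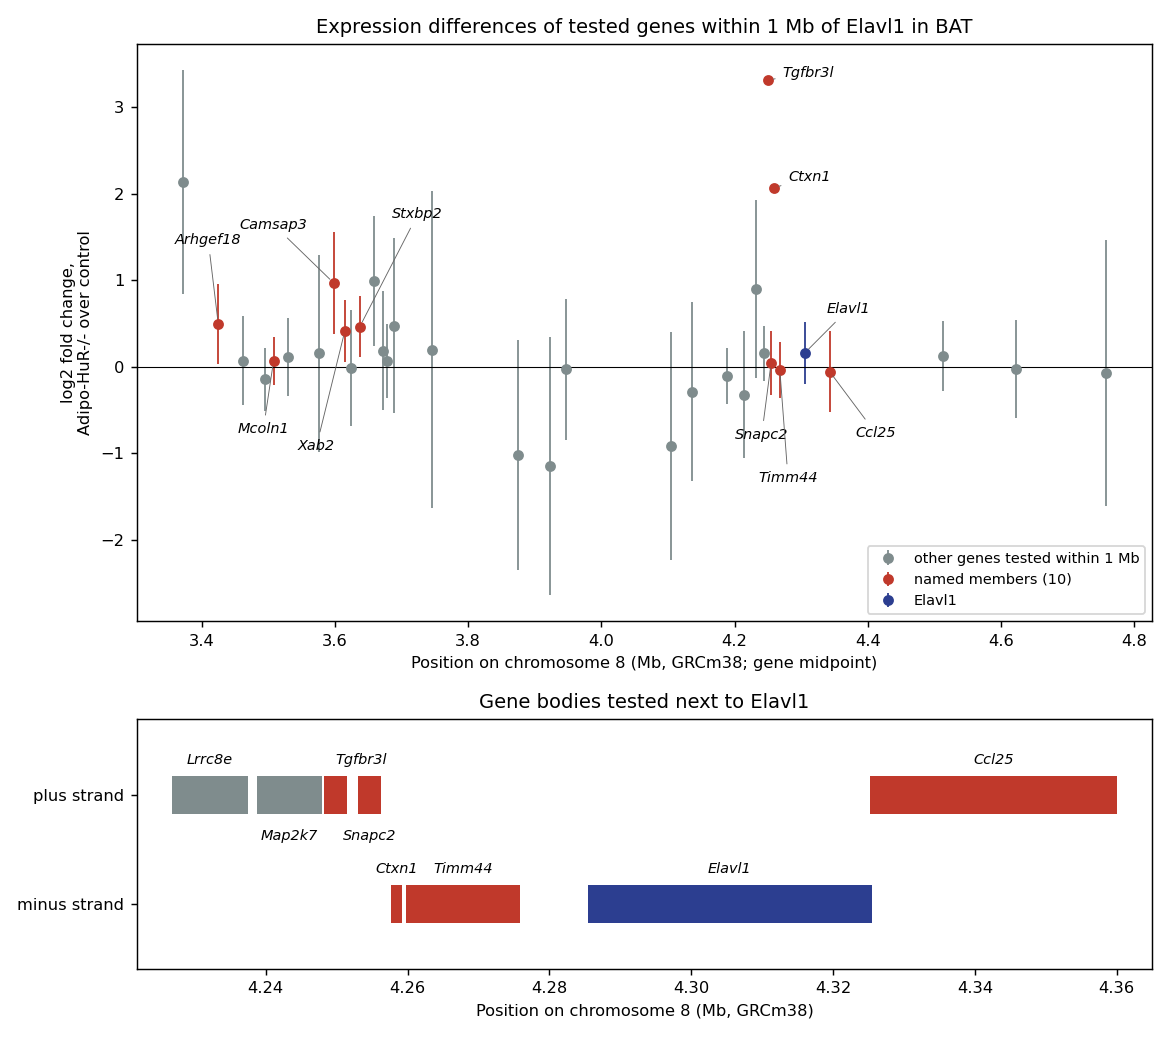
Log2 fold change of each tested gene within 1 Mb of *Elavl1*, plotted at its midpoint on chromosome 8 (top; Mb, GRCm38), with 95% intervals except for *Tgfbr3l* and *Ctxn1*, which were selected on their rise, and the gene bodies next to *Elavl1* by strand (bottom). *Tgfbr3l* (3.31) and *Ctxn1* (2.07) stand above *Snapc2* (0.04) and *Timm44* (−0.04), which lie beside them.

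Farther along, all 5 genes had higher means in the libraries labelled *Adipo-HuR-/-*, *Mcoln1* by the least, and none of them passed the threshold. *Stxbp2* (3630955 to 3643644, plus strand) encodes Munc18-2, which steers vesicle fusion at the plasma membrane. Control libraries gave 52.6, 62.9 and 42.0 CPM, against 72.8, 80.7, 72.6, 69.2 and 66.3 CPM. No library of one group reached into the range of the other, and the log2 fold change was 0.46 (0.160 as standard error, 95% interval 0.11 to 0.82, adjusted p = 0.178 by the quasi-likelihood test of edgeR). *Camsap3* (3587293 to 3609075, plus strand) encodes a protein that caps and steadies microtubule minus ends. Control libraries gave 7.09, 11.3 and 4.99 CPM, against 10.7, 17.1, 16.3, 15.2 and 16.6 CPM. A24 lay below A8, and the other 4 libraries labelled *Adipo-HuR-/-* lay above all controls. Its log2 fold change was 0.97 (0.266 as standard error, 95% interval 0.38 to 1.56, adjusted p = 0.109 by the quasi-likelihood test of edgeR). Without the control library A8 its adjusted p was 0.0404, and in DESeq2's Wald test it was 0.0159; over the alternatives it ranged from 0.0159 to 0.695.

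*Xab2*, whose protein works in splicing and in transcription-coupled DNA repair, had 18.5 ± 1.7 CPM (SD, n = 3) against 24.6 ± 3.76 CPM (SD, n = 5). *Arhgef18*, an exchange factor that activates RhoA, had 23.9 ± 4.14 CPM (SD, n = 3) against 33.6 ± 7.29 CPM (SD, n = 5). Both overlapped between the groups, with log2 fold changes of 0.41 and 0.49 and adjusted p = 0.231 and 0.261 in edgeR's quasi-likelihood test. *Mcoln1*, the lysosomal cation channel TRPML1, was close to level, with 29.2 ± 1.75 CPM (SD, n = 3) against 30.6 ± 1.98 CPM (SD, n = 5).

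All 10 genes passed the filter on low counts. In edgeR's quasi-likelihood test 1 of the 10 was past the threshold, *Tgfbr3l*, where 0.707% of all genes tested were (0.242% as rises); as it was selected on this contrast, nothing is read from the count. Of the 8 genes not selected on their rise, 0 were past it, 4 had an unadjusted p under 0.05, all higher, and DESeq2's Wald test called 1 (*Camsap3*); over all genes tested 17.0% had such a p, and that test called 823 of 14851. Of these 8, 1 was without overlap (*Stxbp2*, 12.5%), where 11.5% of all genes tested did not overlap and 5.37% were higher without overlap. *Tgfbr3l* and *Ctxn1*, also without overlap, are left out of that count as they were selected on their rise. The 8 genes had a median log2 fold change of 0.24, where that of all genes tested was 0.00. As the 8 were picked with earlier results of these data known, their counts and median describe the picked genes and not the neighbourhood. For the 23 other genes tested within 1 Mb, the median was 0.07.

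**Figure D2:**
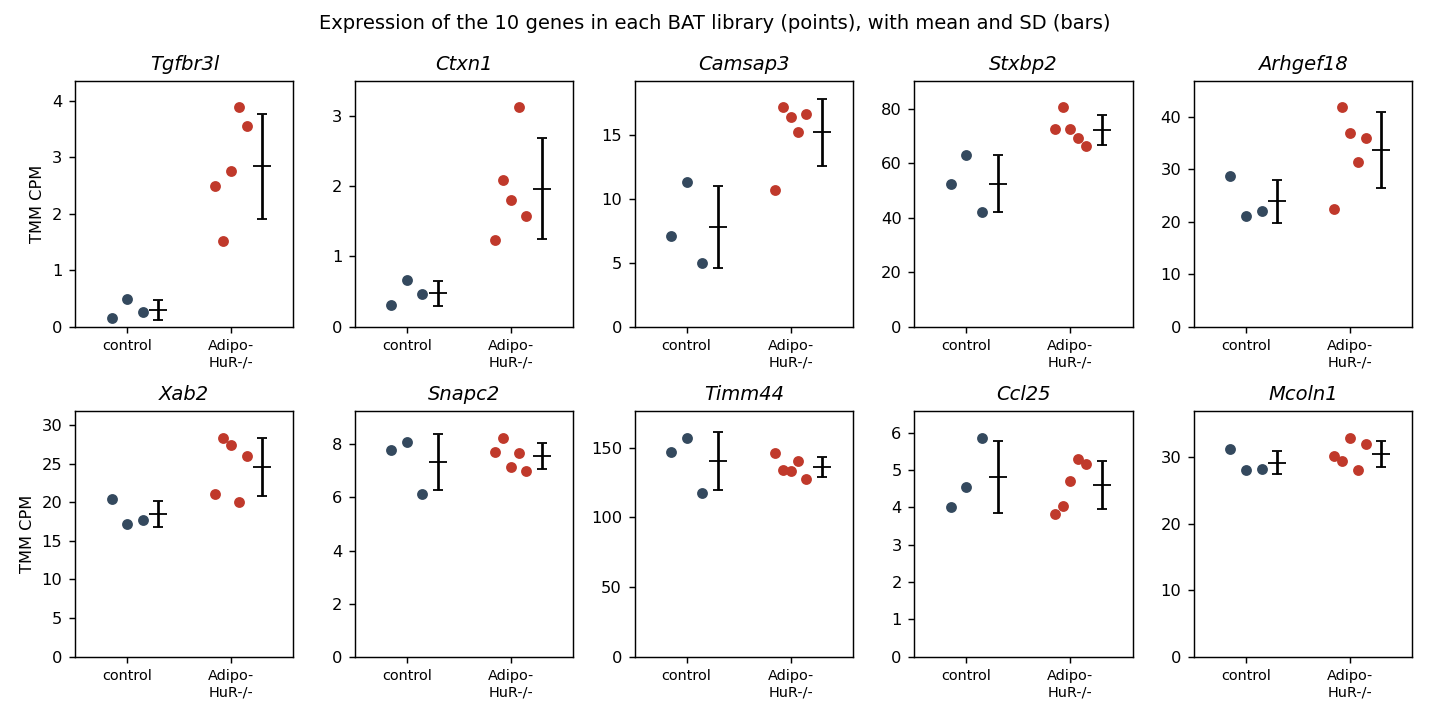
TMM CPM of the 10 genes in each library (points), with mean and SD (bars), for 3 libraries labelled control and 5 labelled *Adipo-HuR-/-*; each panel has its own axis starting at 0. *Tgfbr3l* and *Ctxn1* lie at under 1 CPM in the control libraries, and *Timm44* overlaps fully.

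Per kilobase of transcript, which allows genes to be set beside one another, *Timm44* was the most abundant of the 10 in both groups, with 81.1 ± 12 CPM per kb (SD, n = 3) in the control libraries and 79.8 ± 4.30 CPM per kb (SD, n = 5) in the others. *Stxbp2* followed at 36.5 ± 6.49 CPM per kb (SD, n = 3) against 53.7 ± 5.05 CPM per kb (SD, n = 5), and then *Mcoln1* at 15.6 ± 0.897 CPM per kb (SD, n = 3). *Xab2*, *Snapc2*, *Arhgef18*, *Ccl25* and *Camsap3* followed in the control libraries in that order, between 6.87 and 3.68 CPM per kb; the last 4 did not differ from each other beyond their spread. *Ctxn1* (0.392 ± 0.145 CPM per kb, SD, n = 3) and *Tgfbr3l* (0.326 ± 0.209 CPM per kb, SD, n = 3) were the lowest and overlapped. In the libraries labelled *Adipo-HuR-/-* they were still the lowest, now with *Tgfbr3l* (2.67 ± 0.861 CPM per kb, SD, n = 5) above *Ctxn1* (1.62 ± 0.593 CPM per kb, SD, n = 5), also with overlap.

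The other genes around *Elavl1* were read against the same background. Of 64 annotated genes of the files within 1 Mb, 33 passed the filter, 10 of them the named genes. Of the other 23, 0 were past the threshold, 2 had an unadjusted p under 0.05 (8.70%, where 17.0% of all genes tested did) and DESeq2's Wald test called 1 (823 of 14851 over all). Their median log2 fold change was 0.07, and 12 were above 0 and 11 below. Their groups overlapped for all 23. *A430078G23Rik*, which ends at 3390299, before *Arhgef18* on the same strand, had 0.269 ± 0.194 CPM (SD, n = 3) against 1.19 ± 0.505 CPM (SD, n = 5), so 2.13 on the log2 scale (adjusted p = 0.108 by the quasi-likelihood test of edgeR; it is the gene that DESeq2's Wald test called), with A24 (0.451 CPM) below A7 (0.470 CPM). RefSeq places a first exon of *Arhgef18* at the start of this gene. *Retn*, the adipokine resistin, had 12.1 ± 2.10 CPM (SD, n = 3) against 24.2 ± 11.1 CPM (SD, n = 5), with A24 at 42.0 CPM the highest. *Lrrc8e*, a subunit of volume-regulated anion channels 47912 bases from *Elavl1*, had 0.399 ± 0.203 CPM (SD, n = 3) against 0.720 ± 0.278 CPM (SD, n = 5). Just inside the 1 Mb limit lay *A430078G23Rik*, 895083 bases away, and just outside it *Insr*, 1005765 bases away, with 102 ± 26.1 CPM (SD, n = 3) against 94.8 ± 23.9 CPM (SD, n = 5).

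Along the rest of chromosome 8 there were 0 genes past the threshold among 5 tested at 1 to 5 Mb from *Elavl1* (0 with an unadjusted p under 0.05) and 0 among 78 at 5 to 20 Mb (7 with an unadjusted p under 0.05, and 1 called by DESeq2's Wald test) in edgeR's quasi-likelihood test. Beyond 20 Mb, 7 of 672 were past it, all lower. On other chromosomes 35 of 14007 were higher and 62 lower.

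By transcript, *Tgfbr3l* had counts in its protein-coding form, *Tgfbr3l-201*, and in forms annotated as retaining introns. The coding form was estimated at 3.36, 8.58 and 0 counts in the control libraries and at 20.3, 14, 54.3, 59.0 and 86.0 counts in the others. The forms with retained introns together held 70.1% of the gene's counts in the control libraries and 66.4% in the others. Both kinds were higher in every library labelled *Adipo-HuR-/-* than in any control library. *Ctxn1* has a single annotated transcript in the files.

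Of 72 transcripts of the other 8 genes, 44 passed the filter, 0 of them past the threshold (9 had an unadjusted p under 0.05, where 3415 of all 41808 did, and DESeq2's Wald test called 4, where it called 858 of all), where 0.00957% of all transcripts tested were past it in edgeR's quasi-likelihood test. Without overlap were 8 of the 44, all higher, where 7.41% of all transcripts did not overlap and 4.11% were higher without overlap. Most of the 8 belong to *Stxbp2* and *Camsap3*, whose gene means were higher too. Transcripts of the same gene are not separate results, so the counts for the 44 are given as a description. Of these 8, 6 were annotated as retaining an intron, as were 22 of the 44. One of *Camsap3* had 0 counts in each control library and 3.16, 0.807, 1.6, 0.739 and 0.530 CPM in the others. One of *Stxbp2* had 1.26, 0.962 and 0.501 CPM, against 4.46, 4.37, 2.67, 2.50 and 2.45 CPM. The split by annotated type was looked at after the values were seen. Over all tested transcripts annotated as retaining introns, 5.10% were higher without overlap and 1.07% lower, and 65.6% had a log2 fold change above 0, whereas for protein-coding transcripts these were 3.67%, 4.34% and 45.3%.

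The share that a transcript took of its gene was tested for 15 transcripts, those at 10% or more of a gene with at least 2 such transcripts and not selected on its rise, by two-sided exact permutation, where 0.0357 is the smallest p possible. A form of *Ccl25* with a retained intron took 12.1 ± 2.85% (SD, n = 3) in the control libraries and 21.8 ± 3.25% (SD, n = 5) in the others, without overlap. *Stxbp2-207*, a coding form, took 20.5 ± 3.11% (SD, n = 3) and 13.9 ± 2.93% (SD, n = 5), while *Stxbp2-201* took 62.0 ± 1.5% (SD, n = 3) and 66.1 ± 2.25% (SD, n = 5). The 15 include *Elavl1-201*, given above, and *Elavl1-204*, which took 73.0 ± 7.02% (SD, n = 3) and 90.0 ± 2.10% (SD, n = 5), the widest differences of the 15. Each of these 5 shares was without overlap and reached the smallest exact permutation p, 0.0357, but none passed Benjamini-Hochberg adjustment over the 15 (smallest adjusted p = 0.107). With these group sizes an adjusted p of 0.05 needs most of the 15 to reach that smallest p, so missing it decides nothing. The *Elavl1* pair and the *Stxbp2* pair are shares of the same gene, so the 5 are not separate results. For *Stxbp2-207* the groups all but met, with 17.33% in the control library A7 and 17.32% in A29. The *Ccl25* transcripts that start inside *Elavl1* summed to 3.26 ± 0.373 CPM (SD, n = 3) against 2.82 ± 0.272 CPM (SD, n = 5), and those that start at the distal first exon to 0.966 ± 0.712 CPM (SD, n = 3) against 0.775 ± 0.620 CPM (SD, n = 5), both with overlap.

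Genes that work with the 10 were counted by role. Of 52 tested partners, edgeR's quasi-likelihood test put 0 past the threshold, 4 had an unadjusted p under 0.05 (17.0% of all genes tested did), DESeq2's Wald test called 0, and the median log2 fold change was 0.00. Among them were *Tgfbr2*, a TGF-beta receptor, with 98.9 ± 23.7 CPM (SD, n = 3) against 146 ± 45.9 CPM (SD, n = 5), *Tgfbr1*, of the same role and lower, with 10.8 ± 2.27 CPM (SD, n = 3) against 7.52 ± 1.29 CPM (SD, n = 5), and *Tgfbr3*, betaglycan, the relative of *Tgfbr3l*, with 38.9 ± 10.8 CPM (SD, n = 3) against 43.0 ± 11.6 CPM (SD, n = 5). *Hspa9*, the mitochondrial chaperone of the import motor, had 1615 ± 44.5 CPM (SD, n = 3) against 1473 ± 134 CPM (SD, n = 5). *Timm50*, of the same role and higher, had 59.8 ± 11.6 CPM (SD, n = 3) against 84.2 ± 17.8 CPM (SD, n = 5). The 9 tested partners of this role had a median log2 fold change of 0.07. The inhibin subunit gene *Inha*, part of the ligand of *Tgfbr3l*, was under 0.1 CPM in both groups on average (0.0192 and 0.0600 CPM). *Ctxn3* had 0.527 ± 0.693 CPM (SD, n = 3), mostly from A8 (1.32 CPM), against 0.0241 ± 0.0395 CPM (SD, n = 5), and *Ctxn2* had 0 counts in all 8. *Ccr9*, the receptor of *Ccl25*, had 0.406 ± 0.134 CPM (SD, n = 3) against 0.804 ± 0.360 CPM (SD, n = 5).

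Genes most like *Tgfbr3l* across the 8 libraries were *Slc29a1* (Pearson r = 0.99), a nucleoside transporter, *Preb* (0.98) and *Ddx55* (0.98), and those most like *Ctxn1* were *Rgl2* (0.97), *Pla2g4b* (0.97) and *Miip* (0.97), each over 8 libraries. *Slc29a1* had 47.5 ± 12.6 CPM (SD, n = 3) against 122 ± 8.07 CPM (SD, n = 5). *Tgfbr3l* and *Ctxn1* had r = 0.93 with each other. The 2 groups share the contrast that *Tgfbr3l* and *Ctxn1* were selected on, so that these values describe likeness and carry no test.

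Markers of other cells were read beside the group. Brown adipocyte markers were present in every library, with summed levels between 14504 CPM (A25) and 31649 CPM (A8) and *Fabp4* the most abundant by group means. Skeletal muscle markers were high in 2 control libraries, A7 (3511 CPM summed over 12 genes) and A8 (2393 CPM), and lower in A31 (394 CPM); A12 had 53.9 CPM and the other libraries labelled *Adipo-HuR-/-* between 21.3 CPM (A26) and 43.4 CPM (A29). *Myh4* had the highest mean of them in the control libraries, with 502 CPM there and 21.2 CPM in the others, where *Myl1* had the highest (35.3 CPM). All 12 had lower fitted values under the *Adipo-HuR-/-* label, and 1 of them, *Myl1*, was past the threshold. Its log2 fold change was −2.28 (adjusted p = 0.0474 by the quasi-likelihood test of edgeR). The study's text also describes genes of sarcoplasmic calcium cycling as reduced in *Adipo-HuR-/-* mice. With the muscle score as a covariate, 0 of the 10 genes were past the threshold, while the log2 fold changes were 3.53 for *Tgfbr3l*, 1.93 for *Ctxn1* and 1.34 for *Camsap3*. The part of muscle RNA in these differences was not tested. Neuron markers, in view of the known site of *Ctxn1*, summed to between 2.88 CPM (A12) and 4.43 CPM (A29) over 9 genes, with *Stmn2* the most abundant, *Dbh* at 0 in all 8 libraries and *Snap25*, *Syt1* and *Th* under 0.05 CPM on average in both groups. Thymic epithelium markers, in view of *Ccl25*, summed to at most 0.379 CPM, from 0.0760 to 0.194 CPM in the control libraries and from 0.226 CPM upward in the others, close to the floor of counting, with *Psmb11* the most abundant by group means and *Krt5* and *Krt14* at 0 in all 8. Fewer cells of a type and less RNA per cell cannot be told apart in such libraries.

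The promoters of *Tgfbr3l* and *Ctxn1*, the 2 genes selected on their rise, are shown as the 250 bases before each start (RefSeq, GRCm38.p6; found for 9 of the 10 genes), *Tgfbr3l* at chr8:4247964-4248213 on the plus strand and *Ctxn1* at chr8:4259275-4259524 on the minus strand, 5ʹ to 3ʹ. Capitals mark GGGCGG on either strand; the other 4 motifs named below were searched on both strands too and have no match in these windows.

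Tgfbr3l: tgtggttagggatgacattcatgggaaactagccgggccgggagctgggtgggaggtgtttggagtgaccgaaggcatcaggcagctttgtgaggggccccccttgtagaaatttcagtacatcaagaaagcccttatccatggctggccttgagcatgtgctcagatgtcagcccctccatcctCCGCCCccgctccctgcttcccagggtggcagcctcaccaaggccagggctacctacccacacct

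Ctxn1: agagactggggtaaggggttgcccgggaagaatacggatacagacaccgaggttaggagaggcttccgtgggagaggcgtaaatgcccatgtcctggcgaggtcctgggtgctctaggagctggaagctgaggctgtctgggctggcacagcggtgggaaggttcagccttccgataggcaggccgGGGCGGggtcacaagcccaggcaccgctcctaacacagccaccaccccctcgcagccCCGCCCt

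GGGCGG occurred once in the *Tgfbr3l* window and at 2 places in the *Ctxn1* window, where 32.7% of 32851 windows of the same length hold it. The share of windows is 12.4% for TATAAA, 33.8% for CCAAT, 6.91% for CCGGAAG and 1.55% for TGACGTCA. *Snapc2*, *Xab2*, *Arhgef18* and *Mcoln1* hold GGGCGG in a window too. The windows were 59.2% (*Tgfbr3l*) and 64.4% (*Ctxn1*) G or C, where the median of all was 52.4%. A match is a description of letters, and no occupancy was measured.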

How the data were processed

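Labels sorted the BAT libraries of 8 mice into 3 control and 5 *Adipo-HuR-/-*. The authors deposited estimated counts per transcript, not normalized; the study's methods name CLC Genomics Workbench for mapping, and the program that wrote these values is not given in the sources used here. Transcripts of 1 gene name were added up, and the sums rounded. Genes kept by edgeR's filterByExpr went through TMM scaling and the quasi-likelihood test (R 4.3.3, edgeR 4.0.16, limma 3.58.1, DESeq2 1.42.0) and Benjamini-Hochberg adjustment, and transcripts likewise. Log2 CPM used a prior count of 2. Two-sided exact permutation served for single values (Python 3.11.15, numpy 2.4.6, pandas 2.3.3, scipy 1.17.1), and figures drawn with matplotlib 3.10.9. Positions came from GENCODE M21, and levels per kb divided each transcript's CPM by its length. The quasi-likelihood test was tested on simulated data. Totals were between 17558090 and 67498055 counts; 3 counts stand for 0.0445 CPM (A26) to 0.169 CPM (A24), for counting error only.

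Members and lists were chosen with earlier results of these data known. Named genes are the 10 members, *Elavl1*, the 3 other genes within 1 Mb with the smallest unadjusted p (none was past the threshold in edgeR's test), the 3 most like *Tgfbr3l* and *Ctxn1* by Pearson r, and partner genes picked with their values in view; further names also followed a look at the values, or answer a count. Marker lists covered brown and white adipocytes, skeletal muscle, neurons, Schwann cells, macrophages, lymphocytes, endothelium and thymic epithelium. Alternatives were scaling by DESeq2 or by total counts only, the Wald test of DESeq2, no filter, a filter of 10 counts in every library, the transcript with the highest total count, the muscle score as covariate, no A24 and A25, adjusted p alone, windows of 0.5 and 2 Mb, and each library left out.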

Additional observations from a re-analysis of the deposited data

Results flagged for a closer look

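The skeletal muscle marker score, the mean log2 CPM of 12 genes, was 4.59 in A31, far above the next highest of the 5 libraries labelled *Adipo-HuR-/-* at −2.47. Of 20 sets of values in this group checked in this way, 1 stood out, where chance alone gives about 1 in 20 at the cut-off used. That cut-off was a gap of 0.71 of the range, and the gap here was 0.96 of it. In A31 *Tgfbr3l* (3.55 CPM) and *Ctxn1* (1.57 CPM) lay inside the range of the other 4 libraries of the group.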

How the results depend on the processing

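No paired analysis was possible because the labels give the groups no shared animal or batch numbers. The number of genes past the threshold (105) was 823 in DESeq2's Wald test, 15 with the muscle score as covariate, 5 without A24 and A25, 16 with the highest transcript in place of the gene sum, and 10 to 190 with each library left out. Of the 105, 69 were lower; with total counts only 25 of 121 were, and there the median over genes lay 0.23 log2 units higher. Members past the threshold (1) numbered 2 with total counts only, 3 in DESeq2's Wald test, 2 with no filter, 0 with the muscle score, 0 without A24 and A25, 0 with the highest transcript, and 0 to 2 with each library left out (0 without A7, A26, A29 or A31). Genes within 1 Mb past it (1) numbered 2, 4, 2, 0, 0 and 0 under the same settings in that order, and 0 to 2 with each library left out. In both counts *Tgfbr3l* and *Ctxn1* were selected on their rise, so nothing is read from their calls. The other calls were *Camsap3* (DESeq2's Wald test and without A8) and, within 1 Mb, *A430078G23Rik* (DESeq2's Wald test). Member transcripts past the threshold (0) numbered 7 in DESeq2's Wald test, which called 858 of all 41808. Of the 7, 4 were of the 8 genes not selected on their rise. Members without overlap (3, of which *Tgfbr3l* and *Ctxn1* were selected on their rise and stay in every setting) numbered 5 without A24 and A25 and 3 to 5 with each library left out (5 without A7 or A24); the others thus went from 1 of 8 to 3 of 8 as the share of all genes went from 11.5% to 21%, 19.1% and 16.7%. The cause of these shifts was not tested.

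Small differences changed sign: *Snapc2* (0.04) to −0.019 without A24 and A25 and between −0.073 and 0.123 with each library left out; *Timm44* (−0.04) to 0.20 with total counts only, 0.059 with the muscle score and between −0.156 and 0.053 with each library left out; *Ccl25* (−0.06) to 0.17 with total counts only, 0.064 without A24 and A25 and between −0.178 and 0.111; *Mcoln1* (0.06) to −0.019 with the highest transcript. *Tgfbr3l* (3.31) lay between 2.97 and 3.86 in 15 alternatives and *Ctxn1* (2.07) between 1.82 and 2.37 in 16. *Tgfbr3l* gave no value at 10 counts in every library, as A7 held 9.26. Few control counts limit *Tgfbr3l* and *Ctxn1*, and A24 and A25 limit detection of low genes most.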

Other observations

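The score, a mean of log2 CPM, overlapped between the groups for each list of markers. It used only the markers that passed the filter. For thymic epithelium that was 1 of 5, *Psmb11*, near the floor of counting, so that score and its p describe this gene alone. For neuron it was 3 of 9, for lymphocyte 7 of 8 and for white adipocyte 4 of 5. Schwann cell markers had scores of 2.21 ± 0.322 (SD, n = 3) in the control libraries and 2.23 ± 0.136 (SD, n = 5) in the others (two-sided exact permutation p = 0.857), and 1 of 6, *S100b*, was lower past the threshold by the quasi-likelihood test of edgeR. Their summed CPM did not overlap, with 193, 177 and 134 CPM in the control libraries against 106, 85.7, 88.4, 89.0 and 89.4 CPM. The most abundant of them was *S100b* (118 against 47.5 CPM on average). Macrophage markers had 2.76 ± 1.17 (SD, n = 3) and 2.74 ± 0.375 (SD, n = 5), with A8 the lowest library at 1.42. White adipocyte markers, of which 2 of 4 tested had higher means (*Retn* and *Agt*) and 2 lower (*Lep*, 33.7 against 14.4 CPM, and *Nnat*), had 2.09 ± 0.435 (SD, n = 3) and 2.56 ± 0.242 (SD, n = 5; two-sided exact permutation p = 0.143). Exact permutation p was 0.429 for lymphocyte, 0.357 for endothelial, 0.214 for thymic epithelium, 0.893 for neuron, 0.821 for brown adipocyte and 0.0714 for skeletal muscle scores, the smallest of 9 lists (0.643 after Benjamini-Hochberg adjustment).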
